A study of Mus musculus with 12 samples.

Results

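The 9 genes described here make up the core of the MHC class II presentation pathway: Ciita, Cd74, H2-Aa, H2-Ab1, H2-Eb1, H2-DMa, H2-DMb1, Ctss and Lgmn. They were chosen by name, from what the pathway is known to contain, but with earlier results of these data known. They are 9 of 16399 gene symbols listed in the series. Pieces of MC38 tumour, a mouse colon carcinoma model grown in the C57BL/6 albino strain, had been cut down to 40 to 100 µm, set in collagen at 2.8 mg/mL in a microfluidic chip and kept for 6 days in 300 µL of medium per well. Each group had 3 samples: control antibody (IgG, clone 2A3, 10 µg/mL), a PD-1 antibody (aPD-1, clone RMP1-14, 10 µg/mL), the PD-1 antibody with a CD8 antibody (aPD-1+CD8, RMP1-14 and clone 53-6.7, 10 µg/mL each) and interferon-gamma protein (IFNg, 100 ng/mL). RNA was enriched with exome capture probes before sequencing. No antibody is listed for the wells with IFNg, so the cytokine and the absence of control antibody cannot be told apart. The labels do not say whether the 3 samples of a group came from different animals, so p-values measure how far these samples lie apart, and that spread may be technical.

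MHC class II molecules display peptides from the endosome to CD4 T cells. Dendritic cells, macrophages and B cells make them all the time, whereas many tumour, epithelial and stromal cells make them only after interferon-gamma. The cytokine acts through IRF1, among others, on the promoter of Ciita, whose protein does not bind DNA itself but joins the RFX, CREB and NF-Y proteins that sit on the X and Y boxes of class II promoters. The alpha and beta chains assemble with the invariant chain, encoded by Cd74, which blocks the groove. Legumain (Lgmn) and cathepsin S (Ctss) cut the invariant chain down to a short remnant, and the DM heterodimer (H2-DMa with H2-DMb1) swaps that remnant for a peptide. In the strain used here the I-A molecule is built from H2-Aa and H2-Ab1, while the H2-Eb1 chain has no working alpha partner, since the H2-Ea gene of this haplotype is not functional.

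The stretch of 160 bases before the start site is shown for 4 of the members, from the RefSeq promoters of build GRCm38.p6, because these letters carry the X and Y boxes or an interferon element. A promoter was found for 6 of the 9 members, and none for Ciita, Cd74 or H2-Ab1. Capitals mark the X box core (AGNNACNGA) and the Y box core (ATTGG) in H2-Eb1 and H2-DMb1, ATTGG alone in H2-Aa, and the core of an interferon-stimulated response element (GAAANNGAA) in Ctss. All are written 5′ to 3′ on the strand of the gene. H2-Eb1 is at chr17:34305707-34305866 on the plus strand, H2-DMb1 at chr17:34153031-34153190 on the plus strand, H2-Aa at chr17:34287824-34287983 on the minus strand and Ctss at chr3:95526626-95526785 on the plus strand.
H2-Eb1: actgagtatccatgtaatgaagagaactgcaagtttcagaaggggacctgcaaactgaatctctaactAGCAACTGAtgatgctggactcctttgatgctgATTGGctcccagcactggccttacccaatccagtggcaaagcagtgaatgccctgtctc
H2-DMb1: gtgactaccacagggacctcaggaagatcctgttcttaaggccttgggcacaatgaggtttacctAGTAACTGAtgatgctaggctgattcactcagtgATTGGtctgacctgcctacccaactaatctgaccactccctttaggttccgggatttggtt
H2-Aa: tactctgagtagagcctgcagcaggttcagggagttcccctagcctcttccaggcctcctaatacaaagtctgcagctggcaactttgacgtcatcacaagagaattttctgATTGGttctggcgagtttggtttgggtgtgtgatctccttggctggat
Ctss: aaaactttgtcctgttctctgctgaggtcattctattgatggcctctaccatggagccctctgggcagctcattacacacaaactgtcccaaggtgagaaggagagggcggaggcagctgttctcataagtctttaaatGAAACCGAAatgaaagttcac

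An X box core followed on the same strand by ATTGG, with 10 to 30 bases between them, stood in 75 of 32851 promoters of 300 bases (0.228%), searched on both strands. Among the members with a promoter, H2-Eb1 held it with 24 bases between the cores and H2-DMb1 with 25. The longest run that both windows share, AACTGATGATGCT, overlaps the X box core. It occurred in 3 of the 32851 promoters. H2-Eb1 and H2-DMb1 are among these by the way the run was picked, and the other was Slc39a10. H2-Aa held ATTGG from base -48 with no match to the X box letters used, H2-DMa held ATTGG in one of its promoters from base -198, and Lgmn held it from base -88. The single motifs are common: the X box core stood in 17.7% of all promoters, ATTGG in 37.4%, the GAS element (TTCNNNGAA) in 8.3% and GAAANNGAA in 8.56%. None of the member promoters found held the GAS letters, while those of Ciita, Cd74 and H2-Ab1 were not searched. Of 30 tested genes with the paired cores, 1 was higher with IFNg than with IgG in the authors' deposited table at an adjusted p under 0.05, against 2.42% of the 8606 tested genes with a promoter. That gene was H2-Eb1, which had enough reads for a test only because of the IFNg group. In IFNg v aPD-1, 3 of 30 were higher against 8.46%: H2-Eb1, Arhgap6 and Gga2, the last pair named after their values were seen. Both shares rest on 1 to 3 genes.

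Reads were few. The whole read counts of the 12 libraries were worked back from the deposited mean normalized counts and came to between 5602055 and 10544659 reads per library over 16394 genes. Libraries carry no number of their own and are called a, b and c within a group by falling size factor. A normalized count is the number of reads divided by the size factor of the library, which lay between 0.754 and 1.43. Reads of T cell and pan-leukocyte genes were few: the T cell gene Cd3e had 2 reads in all 12 libraries, and the leukocyte gene Ptprc between 1 and 15 reads per library. Coverage of macrophage genes was uneven, with 76 to 271 reads per library of Mertk, 22 to 57 of Cd68 and 1 to 13 of Itgam. The epithelial genes usual in a carcinoma were nearly absent: 6 of them, among them Epcam and Krt8, together reached 0.698 to 20.9 normalized counts per library. In the IFNg library c, Csf1r, a macrophage receptor, stood at 818 reads against 26 and 19 in the other two IFNg libraries.

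With IFNg, transcripts of the class II pathway were higher from the regulator Ciita to the chains and the invariant chain. In the authors' deposited table of IFNg v IgG, with DESeq2's Wald test and adjusted p under 0.05 over all genes tested, 5 of the 9 members were higher and none was lower: Cd74, H2-Eb1, H2-Ab1, H2-Aa and Ciita. Of all genes with an adjusted p in that table, 2.73% were called higher. The deposited fold changes are shrunken toward 0, which understates genes with few reads. Limma-voom was therefore run on the decoded reads of all 12 libraries, a setting added after the data were seen, and called 6 of 9 members higher, with H2-DMa added, against 2.14% of genes. The normalized counts of the 3 IFNg libraries lay above those of the 9 others for 7 of the 9 members, against 3.78% of the genes with enough reads. Ciita, H2-Aa, H2-Ab1 and H2-Eb1 had enough reads for a test only because of the IFNg group, so that they differ was a condition for being tested. In tumour pieces, more cells carrying a transcript and more RNA per cell cannot be told apart.

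**Figure D1:**
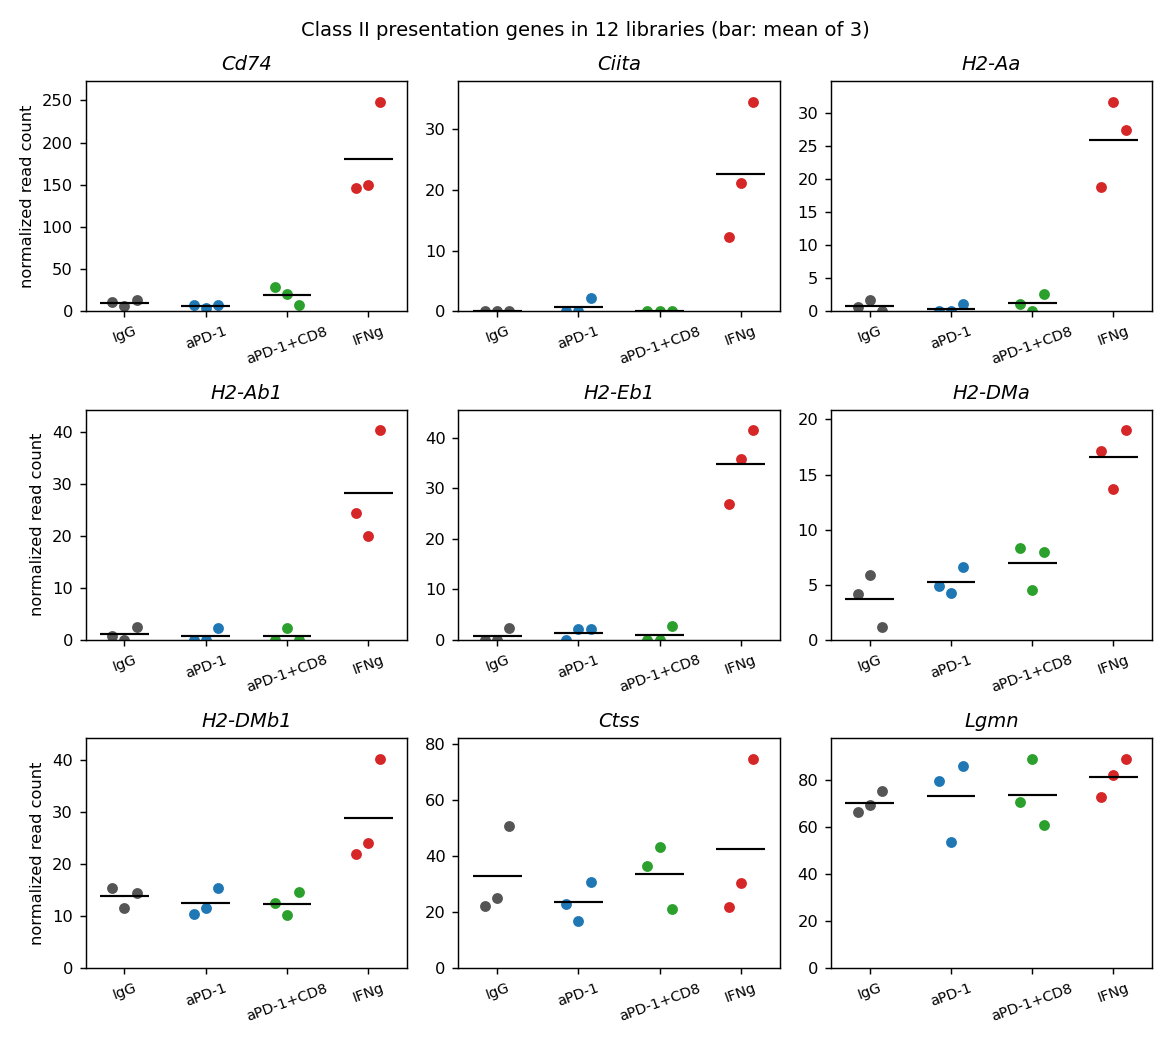
Normalized read count (vertical axis, linear, from 0) of each of the 9 genes in the 3 libraries (points, in the order a, b, c) of each group, with the group mean as a bar. Ciita and the 3 chains lie at or below 2.65 in all 9 libraries without IFNg and at 12.2 or more with it, while Ctss and Lgmn overlap between all groups.

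Ciita, the master coactivator of class II transcription, went from 0 reads in IgG to a low level in all 3 IFNg libraries. It had 0, 0 and 0 reads in the IgG libraries a, b and c, 0, 0 and 2 with aPD-1, 0, 0 and 0 with aPD-1+CD8, and 15, 20 and 29 with IFNg. All IFNg libraries were above every other library. The IFNg mean was 22.6 ± 11.1 normalized counts (SD, n = 3), at least 24.4-fold above IgG when 3 reads over the IgG group are taken as the floor. The exact 95% counting interval of the ratio, which also takes in the error of the IFNg reads, starts at 19.3. The authors' deposited table gives a log2 fold change of 1.48 ± 0.27 (SE), with DESeq2 adjusted p = 3.8e-06. Limma-voom gave 5.50 ± 0.90, adjusted p = 0.00151.

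The chains of the I-A molecule rose with it. H2-Aa, the alpha chain, had 1, 2 and 0 reads in IgG, 0, 0 and 1 with aPD-1, 1, 0 and 2 with aPD-1+CD8, and 23, 30 and 23 with IFNg. H2-Ab1, the beta chain, had 1, 0 and 2 reads in IgG, 0, 0 and 2 with aPD-1, 0, 2 and 0 with aPD-1+CD8, and 30, 19 and 34 with IFNg. Neither gene reached 3 reads in any library without IFNg, and both were between 18.8 and 40.3 normalized counts in the libraries with it. Reads scaled for depth were 29-fold higher with IFNg than with IgG for H2-Aa (95% exact counting interval 9.55 to 144) and 31.7-fold for H2-Ab1 (10.5 to 157); these intervals cover counting error only. In the authors' deposited table the log2 fold changes were 1.61 ± 0.28 and 1.63 ± 0.28, with DESeq2 adjusted p = 6.7e-07 and 5.1e-07. Limma-voom gave 4.47 ± 0.72 and 4.72 ± 0.81, adjusted p = 0.00133 and 0.00212.

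H2-Eb1, the I-E beta chain without a partner in this strain, was higher in every IFNg library as well. It had 0, 0 and 2 reads in IgG, 0, 2 and 2 with aPD-1, 0, 0 and 2 with aPD-1+CD8, and 33, 34 and 35 with IFNg. The 3 IFNg libraries were close to each other and far from the 9 others. The ratio to IgG was 58.4 (counting interval 15.8 to 489), since only 2 IgG reads stand below it, and the interval overlaps those of H2-Aa and H2-Ab1. Against aPD-1 the ratio was 27.8 (10.5 to 104), below the 82.8 of H2-Aa and the 45.2 of H2-Ab1, again with overlapping intervals. The authors' deposited table gives 1.95 ± 0.28, DESeq2 adjusted p = 4.8e-10, and limma-voom gave 5.61 ± 0.91, adjusted p = 0.00134. H2-Eb1, H2-DMb1 and their relatives H2-Eb2 and H2-DMb2 resemble each other in sequence, and the sources used here do not state how reads that match 2 copies were counted. H2-Oa, a chain of the DO molecule that restrains DM, was the only other class II gene measured, with 1, 2 and 2 reads in IgG and 3, 6 and 2 with IFNg, too few for an adjusted p in that table.

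Cd74, the invariant chain, was the most abundant transcript of the pathway after IFNg and was already present without it. It had 16, 8 and 11 reads in IgG, 10, 4 and 7 with aPD-1, 28, 18 and 6 with aPD-1+CD8, and 179, 142 and 209 with IFNg. The lowest IFNg library, at 146 normalized counts, was above the highest of the others, at 29.1. Its mean went from 10.4 ± 3.4 in IgG to 181 ± 57.7 with IFNg (SD, n = 3), a ratio of 17.3 (counting interval 12.3 to 25.2). The authors' deposited table gives 2.92 ± 0.25 with DESeq2 adjusted p = 2.0e-29, rank 22 of 11478 genes by Wald score. Limma-voom gave 4.09 ± 0.43, adjusted p = 1.6e-05.

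Both DM chains were present in every library and differed less between groups. H2-DMa had 6, 7 and 1 reads in IgG, 7, 4 and 6 with aPD-1, 8, 4 and 6 with aPD-1+CD8, and 21, 13 and 16 with IFNg. The IFNg mean of 16.6 ± 2.68 normalized counts was 4.09-fold that of IgG (counting interval 2.22 to 8.01), and the lowest IFNg library, at 13.7, was above the highest of the 9 others, at 8.32. In the authors' deposited table the change was 0.83 ± 0.28, and DESeq2's adjusted p of 0.0624 missed the threshold. Limma-voom gave 2.09 ± 0.48 with adjusted p = 0.0239, a call that was lost without IgG library a, b or c or without IFNg library a, at adjusted p between 0.0607 and 0.102.

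H2-DMb1, the partner of H2-DMa, had 22, 14 and 12 reads in IgG, 15, 11 and 14 with aPD-1, 12, 9 and 11 with aPD-1+CD8, and 27, 23 and 34 with IFNg. Again no other library reached the IFNg group, whose lowest library stood at 22 normalized counts against 15.4 in the highest of the rest. The ratio to IgG was 2.00 (counting interval 1.39 to 2.92). Neither test called it: the authors' deposited table gives 0.61 ± 0.28 with DESeq2 adjusted p = 0.3, and limma-voom gave 0.96 ± 0.32 with adjusted p = 0.156. The promoter of this gene carries the paired X and Y box cores shown above.

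Both proteases that cut the invariant chain showed no called change. Ctss (cathepsin S) had 32, 30 and 42 reads in IgG, 33, 16 and 28 with aPD-1, 35, 38 and 16 with aPD-1+CD8, and 27, 29 and 63 with IFNg. Only 1 IFNg library was above the rest: library c at 74.7 normalized counts, while a and b stood at 22 and 30.6, inside the IgG range of 22.4 to 50.9 or just under it. The authors' deposited table gives 0.21 ± 0.28 with DESeq2 adjusted p = 0.907. Limma-voom gave 0.28 ± 0.41 with adjusted p = 0.839, and -0.17 without IFNg library c. Ctss is a protease that leukocytes are rich in, and the library with the most Ctss was also the one with the highest sum of 8 pan-leukocyte genes in the IgG, aPD-1 and IFNg groups but not in aPD-1+CD8; the part of leukocyte RNA in the Ctss values was not tested.

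Lgmn (legumain) was the flattest member. It had 95, 83 and 62 reads in IgG, 114, 51 and 78 with aPD-1, 68, 78 and 46 with aPD-1+CD8, and 89, 78 and 75 with IFNg. The group means were 70.3 ± 4.48, 73.1 ± 17, 73.6 ± 14.1 and 81.2 ± 8.19 normalized counts in that order (SD, n = 3), and the groups overlapped. The ratio of IFNg to IgG was 1.15 (counting interval 0.961 to 1.39), so counting error alone allows a rise of up to 1.39-fold. The authors' deposited table gives 0.17 ± 0.21, DESeq2 adjusted p = 0.896, and limma-voom gave 0.21 ± 0.21, adjusted p = 0.749.

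**Figure D2:**
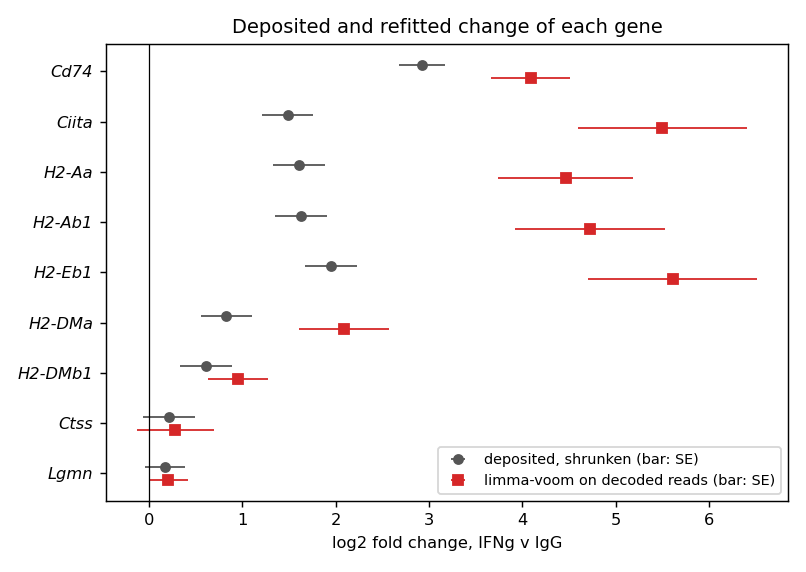
Log2 fold change of IFNg v IgG (horizontal axis) of each gene, as deposited by the authors (circles) and from limma-voom on the decoded reads (squares), with SE bars. The genes with almost no reads in IgG differ most between the scales, as with Ciita at 1.48 and 5.50, while Lgmn stands at 0.17 and 0.21.

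Per kilobase of coding sequence, so that genes can be compared with each other, the order of levels under IFNg was Cd74 at 216 ± 69 normalized counts per kb, Lgmn at 62.3 ± 6.27, Ctss at 41.5 ± 27.6, H2-Eb1 at 40.4 ± 8.53, H2-DMb1 at 36.9 ± 12.7, H2-Ab1 at 35.6 ± 13.4, H2-Aa at 33.7 ± 8.5, H2-DMa at 21.2 ± 3.42 and Ciita at 6.51 ± 3.22 (SD, n = 3). Cd74 stood apart from all others. The 3 class II chains, H2-DMb1 and Ctss lay within 1 SD of each other. These are levels, and capture probes may take up genes unequally, which cannot be read from these files.

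Against aPD-1 in place of IgG, the same 5 members were higher in the authors' deposited table. Both comparisons share the IFNg samples, so the values are given side by side only. In IFNg v aPD-1 the deposited log2 fold changes were 4.13 ± 0.34 for Cd74, 3.03 ± 0.49 for H2-Aa, 3.02 ± 0.46 for H2-Eb1, 2.94 ± 0.48 for H2-Ab1 and 2.58 ± 0.50 for Ciita, with DESeq2 adjusted p between 6.3e-31 and 5.1e-06. They look larger than against IgG, yet limma-voom, whose values are not shrunken, gave 4.71 against 4.09 for Cd74 and 4.77 against 5.50 for Ciita. H2-DMa (1.17 ± 0.46, DESeq2 adjusted p = 0.0668) and H2-DMb1 (0.97 ± 0.40, adjusted p = 0.0881) missed the threshold. Limma-voom called both, at adjusted p = 0.0158 and 0.0222, which makes 7 of 9 members. That call was lost for H2-DMa and H2-DMb1 without aPD-1 library a or b, and for H2-DMb1 without IFNg library c, at adjusted p between 0.0531 and 0.117. Ctss (0.67 ± 0.40, DESeq2 adjusted p = 0.29) and Lgmn (0.13 ± 0.27, 0.832) were not called. The share of all genes called higher in IFNg v aPD-1 was 8.39% in the deposited table and 11.5% with limma-voom.

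No member was called with the PD-1 antibody. In aPD-1 v IgG, 5 of the 9 had enough reads for an adjusted p, DESeq2 called none of them in the authors' deposited table, limma-voom called 0 of 9, and neither gave a member an unadjusted p under 0.05. The shares of all genes called were 18.5% and 16.6%. Cd74 had a deposited log2 fold change of -0.42 ± 0.41, DESeq2 adjusted p = 0.559, with all 3 aPD-1 libraries (4.22 to 7.7 normalized counts) within or below the IgG range of 6.68 to 13.3. For Ciita, H2-Aa, H2-Ab1 and H2-Eb1, with 1 to 4 reads per aPD-1 group, a fall or a small rise was not detectable at this depth. A rise to the 64 to 102 reads of the IFNg group was called for these genes in IFNg v IgG.

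Adding the CD8 antibody moved no member past the threshold either. In aPD-1+CD8 v IgG, DESeq2 and limma-voom called 0% of all genes and no member, none with an unadjusted p under 0.05, and Ciita is not listed, having 0 reads in all 6 libraries. In aPD-1+CD8 v aPD-1, DESeq2 called no member in the authors' deposited table against 14.8% of all genes, and limma-voom none against 17.3%. Cd74 alone had an unadjusted p under 0.05 with both. Its normalized counts were 29.1, 20.5 and 7.96 with aPD-1+CD8 against 6.98, 4.22 and 7.7 with aPD-1, so that 2 libraries were clearly above and 1 just above the aPD-1 group. The authors' deposited table gives 1.0 ± 0.41, DESeq2 adjusted p = 0.088. Limma-voom gave 1.46 ± 0.61, adjusted p = 0.111, and called it only when aPD-1+CD8 library c was left out (1.92, adjusted p = 0.0235).

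**Figure D3:**
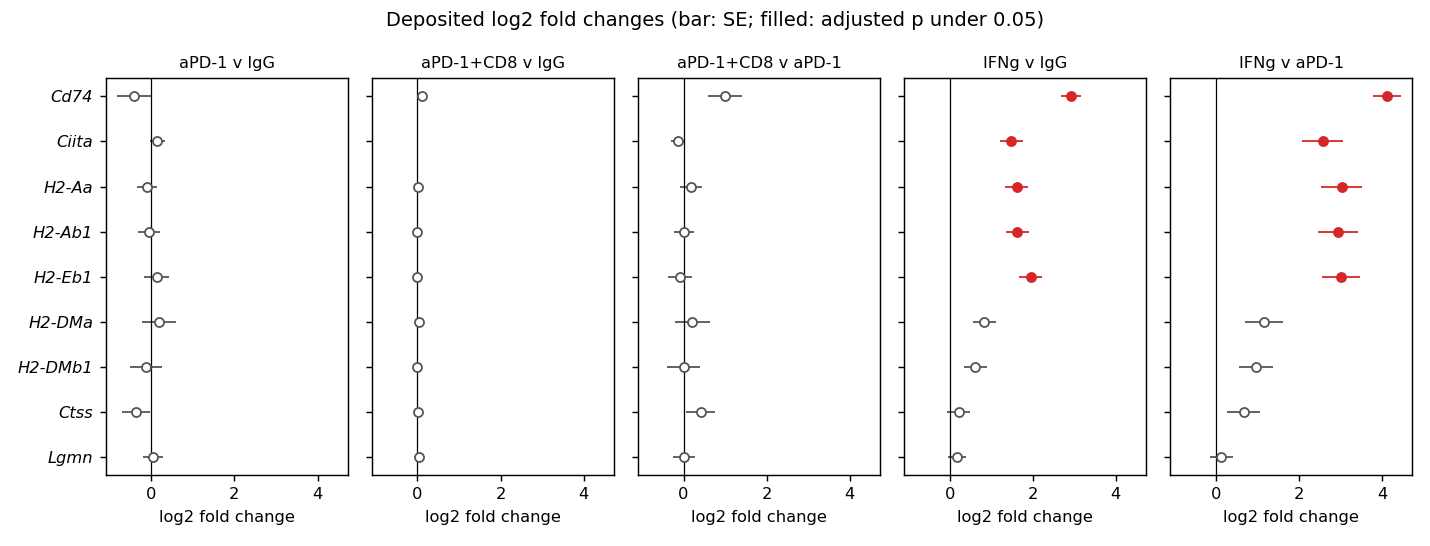
Log2 fold change with SE (horizontal axis) of each of the 9 genes in the authors' 5 deposited comparisons, filled where the adjusted p was under 0.05. Filled points are the same 5 genes in both IFNg panels and absent from the other 3; values in aPD-1+CD8 v IgG sit close to 0, where shrinkage was strongest, and Ciita is not listed there.

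Of 11 signalling genes on the route from the interferon-gamma receptor to Ciita, 10 had a mean normalized count of at least 10 in IFNg v IgG. In the authors' deposited table of that comparison, 5 of the 11 were higher and none lower (DESeq2, adjusted p under 0.05). Among them, the transcription factor Irf1 rose by a log2 fold change of 2.48 ± 0.15 and Irf2 by 0.60 ± 0.16, with the feedback inhibitors Socs1 at 1.05 ± 0.26 and Socs3 at 1.16 ± 0.26. In aPD-1 v IgG, 4 of the 11 were higher and 1 was lower, against 18.5% of all genes called in either direction. Socs3 rose there by 4.47 ± 0.19, Jak2 by 1.07 ± 0.19, Ifngr1 by 0.79 ± 0.25 and Irf1 by 0.42 ± 0.16. Limma-voom did not call Irf1 there (adjusted p = 0.0722).

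Of the genes for proteins that act on class II promoters, 1 was called with IFNg. Among 13 such factors, which include the RFX, NF-Y and CREB subunits, 0 were higher and 1 was lower in IFNg v IgG in the authors' deposited table: Prdm1, which encodes a repressor of the Ciita promoter, at -0.83 ± 0.23 (DESeq2 adjusted p = 0.00859). Limma-voom did not call Prdm1 (-1.04 ± 0.41, adjusted p = 0.27). In aPD-1 v IgG, 1 of the 13 was higher and 1 was lower in that table, against 18.5% of all genes called in either direction. Rfx5, which encodes the large RFX subunit, was higher with aPD-1 than with IgG (0.73 ± 0.22, DESeq2 adjusted p = 0.00788), with 222, 116 and 111 reads against 119, 103 and 48. Kat2b, an acetyltransferase, was lower there (-0.49 ± 0.16, DESeq2 adjusted p = 0.0186) but not called by limma-voom (adjusted p = 0.0678), and it was higher in IFNg v aPD-1 (0.89 ± 0.19, DESeq2 adjusted p = 9.6e-05). In IFNg v aPD-1, 1 of the 13 was higher, against 8.39% of all genes called higher. H2-Aa, H2-Ab1 and H2-Eb1 had too few reads for a deposited adjusted p in aPD-1 v IgG, and limma-voom called none of them there.

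Genes of the endosome beyond Ctss and Lgmn stayed below the threshold. Among 14 other endosomal proteases, reductase and inhibitors, DESeq2 called 0 in the authors' deposited table of IFNg v IgG, and limma-voom called 0, each with 1 at an unadjusted p under 0.05. Of these 14, 11 had an adjusted p and limma-voom tested 11. Of 21 general lysosome genes, 1 was higher, the cholesterol carrier Npc2 (0.60 ± 0.17), and 1 was lower. Limma-voom did not call Npc2 (adjusted p = 0.075). Of 10 genes of class II turnover and Cd74 partners, Cd81, a tetraspanin, was lower (-0.68 ± 0.13, DESeq2 adjusted p = 8.2e-06). None of 5 listed costimulatory and adhesion ligands was called by DESeq2 or limma-voom in IFNg v IgG, where DESeq2 had 0 and limma-voom 1 at an unadjusted p under 0.05. Only 4 of these ligands had an adjusted p, and limma-voom tested 4.

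MHC class I presentation, which interferon-gamma also raises, gave the nearest comparison. Of 11 class I genes, 10 were higher with IFNg than with IgG in the authors' deposited table and none lower, among them Psmb10, an immunoproteasome subunit (2.25 ± 0.18), Nlrc5, the class I counterpart of Ciita (1.93 ± 0.17), Tap1, the peptide transporter (1.75 ± 0.19), and the heavy chain H2-K1 (0.88 ± 0.13). The class I genes had summed normalized counts of 17500 to 19200 per IgG library and 33600 to 38800 per IFNg library. H2-K1 made up most of these sums, with 15300 to 17000 per IgG library, whereas the immunoproteasome subunit Psmb9 had 22.5 to 40. The 9 class II members together had 120 to 160 in IgG and 362 to 614 with IFNg, while the 5 of them that were called, a subset picked by that call, had 8.35 to 18.2 and 229 to 391. The median deposited log2 fold change was 1.5 over the class I genes and 1.5 over the 9 class II members, against 0.0093 over all genes. The median limma-voom value, which is not shrunken, was 1.83 over the class I genes, 4.09 over the class II members and 0 over all genes; how the 2 lists differ was not tested.

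Markers of cells that make class II all the time were not called higher in IFNg v IgG, while Pax5 and C1qc were in IFNg v aPD-1. Not all listed markers were tested in IFNg v IgG. An adjusted p was given for 6 of 8 pan-leukocyte, 10 of 15 macrophage and 5 of 8 dendritic cell genes. For B and T cell genes it was 2 of 6 and 1 of 4. Limma-voom tested 7, 11, 6, 2 and 1 genes of these lists in that order. In IFNg v IgG, DESeq2 called 0 of 8 pan-leukocyte genes in the authors' deposited table, none with an unadjusted p under 0.05, and limma-voom 0 with 1 such gene. Their summed normalized counts were 71.9 to 124 per IgG library and 53.9 to 93.7 per IFNg library. Of 15 listed macrophage and monocyte genes, 2 were lower (Mrc1 and Mertk) and none was higher; the sum of the 16 with reads was 400 to 467 in IgG and 241, 266 and 1300 in IFNg libraries a, b and c. The high value of library c came from Csf1r, without which the sum was 365 to 447 in IgG and 220 to 332 with IFNg. Csf1r had no p-value in either deposited IFNg comparison. Limma-voom did not call it in IFNg v IgG (1.41 ± 1.17, adjusted p = 0.678). Of 8 listed dendritic cell genes, DESeq2 called 0, with 1 at an unadjusted p under 0.05, and 1 was lower with limma-voom, and Itgax had 12, 15 and 14 reads in IgG against 3, 0 and 2 with IFNg. Of 6 listed B cell genes, DESeq2 and limma-voom called 0, each with 1 at an unadjusted p under 0.05. The B cell sum, nearly all of it Pax5, was 28.6 to 37.6 in IgG and 30.8 to 62.2 with IFNg. The T cell sum was small but did not overlap, at 2.5 to 4.85 in IgG and 7.34 to 14.2 with IFNg, most of it from Lck, a T cell kinase, with 5, 0 and 1 reads against 9, 9 and 12; DESeq2 and limma-voom called 0 T cell genes, each with 1 at an unadjusted p under 0.05, and the part of these cells in the class II values was not tested. In IFNg v aPD-1, 1 marker each of T cells, B cells and macrophages was higher in the authors' deposited table and with limma-voom. These were Lck (1.38 ± 0.51, DESeq2 adjusted p = 0.0436), Pax5 (2.29 ± 0.42, adjusted p = 1.7e-06) and the complement gene C1qc (1.44 ± 0.49, adjusted p = 0.0264). Pax5 was also lower with aPD-1 than with IgG (-1.41 ± 0.39, DESeq2 adjusted p = 0.00259). Lower in IFNg v aPD-1 in that table were Mrc1 and the dendritic cell gene Ccr7. There 0 of 8 pan-leukocyte genes were called by DESeq2 or limma-voom, none with an unadjusted p under 0.05. Of these 8, 6 had an adjusted p and limma-voom tested 7. The part of these cells in the class II values of IFNg v aPD-1 was not tested either. Of 7 listed stromal genes, Dcn and Acta2 were higher and Col1a1 and Col3a1 lower in the deposited table, while limma-voom called Acta2 alone. Left out in turn, each of the 12 libraries kept Cd74, Ciita, H2-Aa, H2-Ab1 and H2-Eb1 called by limma-voom in IFNg v IgG, the IFNg library c with its high Csf1r included.

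**Figure D4:**
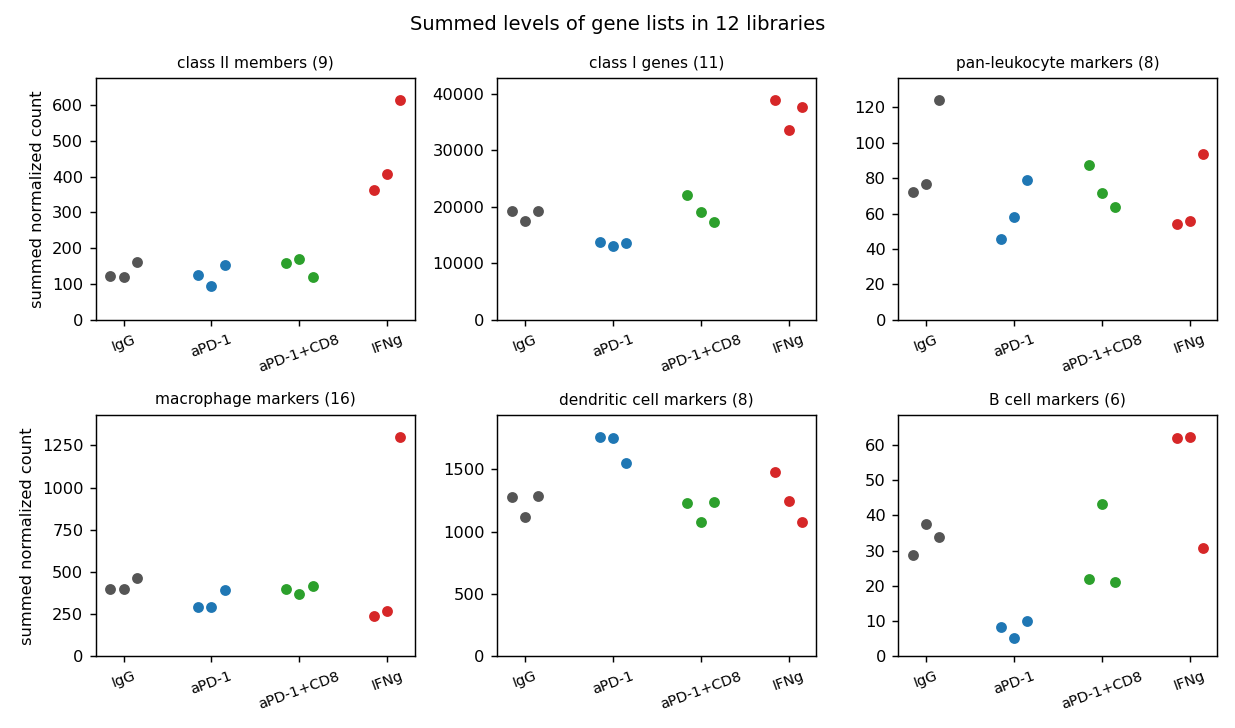
Summed normalized count per library (vertical axes, linear, from 0) of the 9 class II members, of 11 class I genes and of 4 marker lists, as points for the 3 libraries of each group. The class II sum is 362 to 614 with IFNg against at most 170 elsewhere, while the pan-leukocyte sum of the IFNg libraries, 53.9 to 93.7, lies within the range of the other groups and the macrophage sum is high in IFNg library c alone.

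With 4 groups, the genes whose levels ran most like Ciita among 10235 genes with a mean normalized count over the IgG and IFNg libraries of 10 or more were, by Euclidean distance of the centred log2(mean normalized count + 1), H2-Eb1 (distance 0.349), Batf2 (0.413), Apol6 (0.425), Gbp5 (0.557) and Ubd (0.677). The nearest to Cd74 were Cryab (0.269), Rab15 (0.43), Ccl5 (0.495), H2-Aa (0.548) and Paqr5 (0.604). Cryab, a small heat shock protein, had means of 42.6 in IgG, 21.3 with aPD-1, 70.7 with aPD-1+CD8 and 700 with IFNg, the same order of groups as Cd74 at 10.4, 6.3, 19.2 and 181. Ccl5, a chemokine, followed with 27.3, 19.5, 35.7 and 365. Ciita itself and the neighbours H2-Eb1, Batf2, Apol6, Ubd, H2-Aa and Paqr5 met the minimum only through the IFNg group, so that they run alike was in part a condition for being compared. The order Cd74 and Cryab share below IFNg does not rest on called differences of Cd74.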

How the data were processed

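RNA of 12 samples in 4 groups of 3 was measured after exome capture. Only the authors' 5 pairwise tables were used, made with DESeq2 on mm9 per the submitters' processing notes; the aligner, the counting program and the strand setting were not given in the sources used here. The authors computed 6 columns for each table, per the file headers: the mean normalized count of 6 libraries (a signal), the log2 fold change, its SE, the Wald score, and the raw and adjusted p-value. The deposited tables hold 0 columns of single samples.

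Each deposited mean is a sum of whole reads times 6 library constants, and the tables show these constants as the values shared by 100 or more genes at 1 read. The 12 whole counts of a gene were found as the closest lattice point (LLL reduction, sympy 1.14.0). They give back the printed means within a relative 7.5e-15, other counts with the same means would differ by at least 240000 reads, and size factors recomputed from them (median of ratios) match the deposited ones within 2.1e-04. Of 16399 genes, 5 were left out, among them all with a mean above 100000. A run on simulated data was used to check the decoding and the test. The design had assumed 1 scaling for all tables; this does not hold, so group levels come from decoded counts over 1 size factor per library. Depth was 5602055 to 10544659 reads per library.

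The main test is the authors' adjusted p under 0.05. Limma-voom (limma 3.58.1; 1 model of 12 libraries; 11575 genes with a summed normalized count of at least 36) was added. Counting intervals are exact 95% intervals of the ratio of pooled reads. Named are all members, genes of the fixed lists that passed the threshold in a comparison or define a cell type, and the 5 nearest patterns of Cd74 and Ciita. Members, 16 other gene lists and motifs were chosen with earlier results of these data known. Lengths are coding lengths from GENCODE M21. Alternatives were other thresholds, adjustments, filters, an empirical null, scalings and pseudocounts. Some genes of the lists are counted but not reported by name here.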

Additional observations from a re-analysis of the deposited data

How the results depend on the processing

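The 5 members called in IFNg v IgG and the 5 called in IFNg v aPD-1 remained 5 under the 5 planned ways of calling (adjusted p under 0.01, adjustment over every gene with a p-value, a mean count of at least 10, an empirical null, a log2 fold change of at least 1), and the 0 of each other comparison remained 0. Limma-voom without each library in turn called 5 to 6 members in IFNg v IgG, 5 to 7 in IFNg v aPD-1, 0 in aPD-1 v IgG and aPD-1+CD8 v IgG, and 0 to 1 in aPD-1+CD8 v aPD-1, the 1 being Cd74 without aPD-1+CD8 library c. The median log2 ratio of IFNg to IgG over the 9 members was 3.84 from decoded counts with a pseudocount of 1, 3.81 to 3.85 by the designed recovery, 4.06 with a pseudocount of 0.5, 2.42 with a pseudocount of 5, which by construction shrinks low levels, and 3.51 to 3.93 without 1 library. Directions that changed without 1 library were all of uncalled members. Their limma-voom log2 fold changes ranged from -0.054 to 1.42 for Ciita, -1.25 to 0.22 for H2-Ab1 and -0.0544 to 0.237 for Lgmn in aPD-1 v IgG. In aPD-1+CD8 v IgG they ranged from -0.0458 to 0.481 for Ctss, -0.257 to 0.951 for H2-Aa, -0.799 to 0.554 for H2-Ab1, -0.367 to 1.32 for H2-Eb1 and -0.0724 to 0.182 for Lgmn. In aPD-1+CD8 v aPD-1 they ranged from -1.04 to 0.439 for Ciita, -0.332 to 1.21 for H2-Ab1, -0.114 to 0.177 for H2-DMb1, -1.5 to 0.166 for H2-Eb1 and -0.167 to 0.131 for Lgmn. Ctss in IFNg v IgG ranged from -0.169 to 0.699, its log2 ratio of levels from -0.307 to 0.814, negative without IFNg library c, and Lgmn in IFNg v aPD-1 from -0.0321 to 0.259; the cause was not tested. Of 80 counts of the 16 other lists in IFNg v IgG, 73 stayed within 1.5 times. With a log2 fold change of at least 1, the count went from 1 to 0 for promoter factors, 1 to 0 for class II turnover genes, 2 to 0 for lysosome genes, 2 to 1 for macrophage genes and 4 to 2 for stromal genes, and the lysosome count was 0 at adjusted p under 0.01 and 1 with the empirical null. No paired analysis was possible because the decoded libraries carry no replicate number. Depth limits the members with under 5 reads per group outside IFNg: a fall or a small rise among those groups was not detectable.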
